A study of Homo sapiens with 59 samples.

Results

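Coptidis Rhizoma, the rhizome of Coptis plants whose best known alkaloid is berberine, was applied as a water extract to HepG2, a long-established line from a human liver carcinoma that keeps many hepatocyte functions. The 3 libraries treated with 210 ug/mL were set against the 3 libraries treated with 42 ug/mL, and these 6 of the 59 libraries in the series were chosen by the extract and dose in their labels. The comparison covers every gene and asks which changes the last 5-fold step in dose added, extended or reversed. RNA was taken 24 h after treatment in all groups and sequenced from directional mRNA libraries. For context, 3 libraries at 8.4 ug/mL and 3 vehicle libraries were used, and the same 5-fold step was read in water extracts of Scutellariae Radix and of fresh ginger (500 against 100 ug/mL, 3 libraries for each dose). The vehicle was DMSO, whose content is 0.1% by the labels of the vehicle libraries but 2% by the text on the whole series, and for the extracts no DMSO content is labelled. All libraries carry the same batch name in their titles. The code before it begins with 4 for Coptidis and also for Zizyphi Fructus, another extract of the series, and with A1 for vehicle. In a comparison with vehicle the extract and whatever this code may mark cannot be told apart, whereas the 2 Coptidis doses share its first character. Whether the 3 replicates of a group were separate cultures is not labelled, and the p-values reflect the spread among these libraries, which may be technical.

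Libraries at 210 ug/mL held 26308742 to 27994551 counts with 22334 to 22668 genes detected, and those at 42 ug/mL held 27100660 to 28450278 counts with 21377 to 21504 genes detected. The HepG2 and hepatocyte markers were present at both doses: 13 genes such as ALB and AFP summed to 27420 to 28320 CPM (depth-scaled counts) at 210 ug/mL and 40350 to 41420 CPM at 42 ug/mL, and none was at 0. Of 22 markers of other cell types, 7 were at 0 in every library at 210 ug/mL and 8 at 42 ug/mL, with PTPRC, CD3E, COL1A2, DCN, KDR and KRT5 at 0 in both. The 22 summed to 1275 to 1365 CPM at 210 ug/mL and 2300 to 2523 CPM at 42 ug/mL. LYZ, the lysozyme gene, made up 78.9% to 81.0% of that sum at 210 ug/mL and 89.7% to 90.8% at 42 ug/mL, and averaged 1372 CPM in vehicle. The epithelial adhesion gene EPCAM came next in each group. All values are relative to the RNA in a library, so fewer cells of a kind and less RNA per cell cannot be told apart.

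Cells that meet a plant extract sense it in several ways. The aryl hydrocarbon receptor binds planar aromatic compounds and switches on cytochromes P450, the transcription factor NRF2 raises antioxidant enzymes, ATF4 responds to a lack of amino acids and to stress of mitochondria and the endoplasmic reticulum, and immediate early genes such as FOS answer kinase signalling without new protein synthesis. The differentiated liver cell is known for secreting plasma proteins and lipoproteins and for making cholesterol under the control of the transcription factor SREBP2.

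At 210 ug/mL, 4756 genes were higher and 4634 were lower than at 42 ug/mL, together 9390 of 16641 genes tested (56.4%, edgeR's quasi-likelihood test, Benjamini-Hochberg adjusted p under 0.05). Changes of at least 2-fold were fewer, with 1041 genes higher (6.26%) and 706 lower (4.24%). The median log2 change over all genes was -0.0063. Since more genes passed the test than did not, counts of called members are read beside 28.6% higher and 27.8% lower over all genes, and sizes are given for each gene. All log2 changes below are model estimates of 210 over 42 ug/mL unless another pair is named, and levels are CPM per library.

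Among genes of at least 5 CPM in the higher group, the 12 strongest rises included a matrix protease, AP-1 subunits, a complement receptor, an immediate early gene and a cytokine. MMP3, stromelysin, which degrades extracellular matrix (chromosome 11, 102835801 to 102843803, GRCh38), had 128, 117 and 114 CPM at 210 ug/mL, against 2.23, 2.46 and 1.73 CPM at 42 ug/mL. The groups were far apart, and the log2 change was 5.80 (SE 0.101, adjusted p = 6.83e-42). FOSB, a subunit of the AP-1 transcription factor (chromosome 19, 45467995 to 45475179), had 35.1, 37.9 and 29.97 CPM at 210 ug/mL, against 0.769, 1.17 and 0.766 CPM at 42 ug/mL (log2 change 5.25, SE 0.183, adjusted p = 2.13e-29). FOS, its close relative, had 69.2, 66.6 and 52.5 CPM at 210 ug/mL, against 1.73, 2.34 and 2.86 CPM at 42 ug/mL (4.77). IL11, a cytokine of the interleukin 6 family (chromosome 19, 55364389 to 55370463), had 391, 306 and 329 CPM at 210 ug/mL, against 17.8, 15 and 17 CPM at 42 ug/mL (4.36, SE 0.0933). For each of these genes every library at 210 ug/mL lay above every library at 42 ug/mL, as for 5333 of the genes tested (32.0%).

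C5AR2, a receptor for the complement fragment C5a (chromosome 19, 47332147 to 47347327), had 8.74, 8.08 and 7.40 CPM at 210 ug/mL, against 0.192, 0.282 and 0.202 CPM at 42 ug/mL (5.14, SE 0.333). ARC, an immediate early gene best known in neurons, had 5.35, 6.27 and 5.54 CPM at 210 ug/mL, against 0.231, 0.121 and 0.121 CPM at 42 ug/mL (5.13, SE 0.332). C5AR2 and ARC stood between FOSB and FOS in size. The others of the 12 were TMEM156 (4.80), the related small GTPase genes RRAD (4.71) and GEM (4.42), the gel-forming mucin gene MUC5AC (4.64), IGFN1 (4.29) and AHRR, the repressor of the aryl hydrocarbon receptor (4.27). At 42 ug/mL against vehicle, MUC5AC (3.32) and TMEM156 (4.55) were already called as higher, whereas RRAD (0.20), GEM (0.60) and ARC (1.53) were not called. The 42 ug/mL libraries stand in both of these comparisons.

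Among genes of at least 5 CPM in the higher group, the strongest falls were smaller in size than the strongest rises. SPTLC3, a subunit of serine palmitoyltransferase, which starts sphingolipid synthesis (chromosome 20, 13008979 to 13169103), had 5.05, 5.28 and 5.58 CPM at 210 ug/mL, against 32.7, 33.3 and 33.9 CPM at 42 ug/mL (log2 change -2.65, SE 0.0655, adjusted p = 1.38e-35). TNFSF10, the death ligand TRAIL (chromosome 3, 172505508 to 172523507), had 1.05, 1.54 and 1.05 CPM at 210 ug/mL, against 7.61, 7.18 and 6.85 CPM at 42 ug/mL (-2.57, SE 0.115). SCN1A, a voltage-gated sodium channel gene (chromosome 2, 165984641 to 166149214), had 1.54, 1.89 and 1.62 CPM at 210 ug/mL, against 8.95, 9.88 and 9.84 CPM at 42 ug/mL (-2.50, SE 0.127). In all 3 genes the groups did not overlap, as for 5183 of the genes tested that were lower at 210 ug/mL (31.1%). The organic anion transporter SLCO4C1 (-2.31), the thyroid hormone deiodinase DIO1 (-2.25), the aromatic amino acid decarboxylase DDC (-2.24) and the homeobox genes HOXD1 (-2.32) and MIXL1 (-2.29) followed, with PLPPR1 (-2.33) and TRIM50 (-2.28). HPR also met the rule (-2.34), but it closely resembles haptoglobin, HP (-1.27), so reads may be split between them and its value is uncertain.

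**Figure D1:**
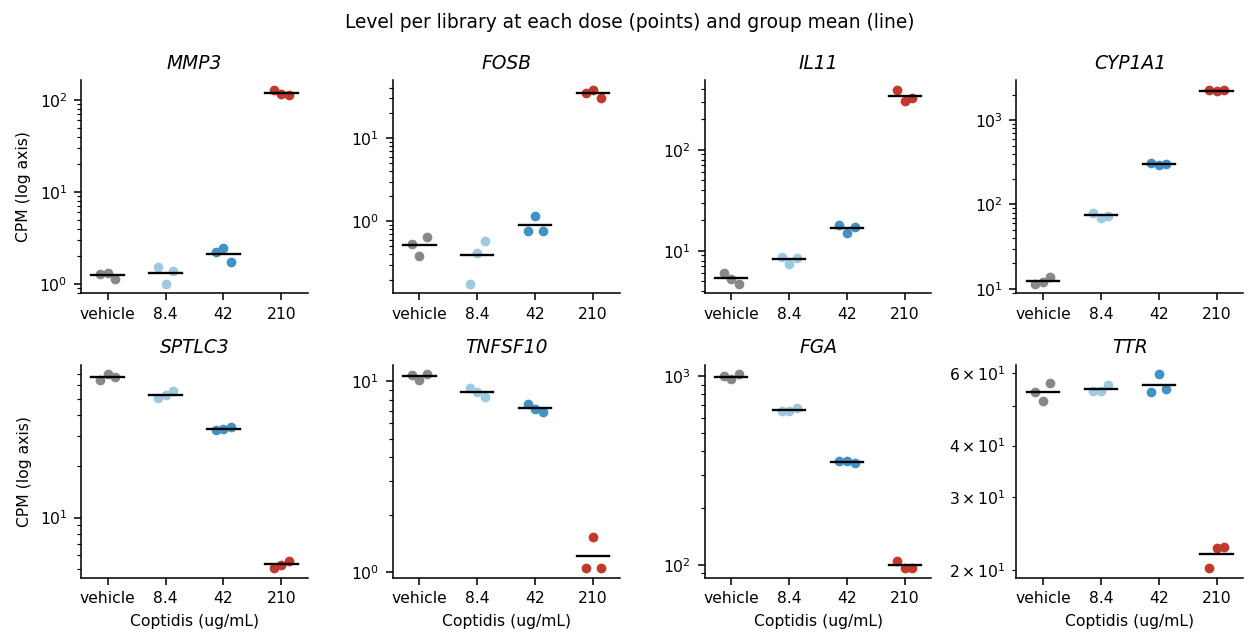
CPM on a log axis for 8 genes in each of 3 libraries (points) of vehicle and Coptidis at 8.4, 42 and 210 ug/mL, with the group mean as a line. MMP3, FOSB and IL11 were far higher at 210 than at 42 ug/mL, CYP1A1 was higher at each dose than at the one before, SPTLC3, TNFSF10 and FGA were lower at each dose, and TTR was lower at 210 ug/mL than at the other doses.

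The genes called between 210 and 42 ug/mL were divided by what they did between 42 ug/mL and vehicle, where 7801 genes were called (46.9%; 23.4% higher and 23.5% lower). At 8.4 ug/mL against vehicle 2656 genes were called (16.0%). A change counts as added where the gene was not called at 42 ug/mL against vehicle, as extended where it was called there in the same direction, and as reversed where it was called in the opposite direction. Added changes numbered 3734, of which 1940 were higher (11.7% of genes tested) and 1794 lower (10.8%). Extended changes numbered 4854, of which 2420 were higher (14.5%) and 2434 lower (14.6%). Reversed changes numbered 802, of which 396 were higher (2.38%) and 406 lower (2.44%). Added changes of at least 2-fold numbered 749, extended ones 932 and reversed ones 66. These counts describe 2 sets of calls and carry no test, because the same 42 ug/mL libraries enter both with opposite signs. With library totals in place of TMM scaling, the higher genes were 73.7% of added (52.0% with TMM), 34.0% of extended (49.9% with TMM) and 90.5% of reversed genes (49.4% with TMM).

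Of 10 targets of the aryl hydrocarbon receptor 9 were tested. All 9 rose, 7 of them at least 2-fold, with a median log2 change of 2.79. CYP1A1, the classical inducible cytochrome of this receptor (chromosome 15, 74719542 to 74725610), had 2293, 2206 and 2261 CPM at 210 ug/mL, against 307, 295 and 303 CPM at 42 ug/mL (log2 change 2.90, SE 0.0715, adjusted p = 1.23e-35). Its mean was 12.3 CPM in vehicle and 74.4 CPM at 8.4 ug/mL, so each dose stood above the one before it. ALDH3A1, an aldehyde dehydrogenase, had 25.3, 23.1 and 23.5 CPM at 210 ug/mL, against 1.42, 1.85 and 1.61 CPM at 42 ug/mL (3.88). CYP1B1, another cytochrome of the family, had 131, 110 and 109 counts at 210 ug/mL, against 3, 2 and 0 counts at 42 ug/mL, and was not called at 42 ug/mL against vehicle. TIPARP, a feedback inhibitor of the receptor, was likewise not called at 42 ug/mL against vehicle (-0.02) and had 50.9, 50.6 and 46.4 CPM at 210 ug/mL, against 23.3, 22.3 and 23.5 CPM at 42 ug/mL (1.10). The genes of the receptor itself, AHR (0.28), and of its partner ARNT (0.26) rose less. Of the 9 targets, 6 were extended and 3 (CYP1B1, TIPARP and UGT1A6) were added. UGT1A6 had 26, 15 and 30 counts at 210 ug/mL, against 1, 7 and 8 at 42 ug/mL and 6, 0 and 3 in vehicle. Its place among the added genes therefore rests on few counts.

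Promoters are shown for CYP1A1 and IL11, which rose, and for the metallothionein genes MT2A, which rose, and MT1X, which was not called, as described further on. Each is the 250 bases before the start of transcription in RefSeq (GRCh38.p14), written 5′ to 3′ on the strand of the gene, with matches on either strand in capitals. The capitals mark GCGTG, the core of the element bound by the aryl hydrocarbon receptor, in CYP1A1. They mark TGANTCA, the AP-1 element, in IL11, and TGCNCNC, the core of the metal response element, in MT2A and MT1X. Matches to different motifs can share bases.
CYP1A1: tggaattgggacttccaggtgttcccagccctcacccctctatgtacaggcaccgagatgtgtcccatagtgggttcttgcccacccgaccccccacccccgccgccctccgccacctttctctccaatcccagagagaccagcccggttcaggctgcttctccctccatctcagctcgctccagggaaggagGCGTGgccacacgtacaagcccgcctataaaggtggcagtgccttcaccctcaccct
IL11: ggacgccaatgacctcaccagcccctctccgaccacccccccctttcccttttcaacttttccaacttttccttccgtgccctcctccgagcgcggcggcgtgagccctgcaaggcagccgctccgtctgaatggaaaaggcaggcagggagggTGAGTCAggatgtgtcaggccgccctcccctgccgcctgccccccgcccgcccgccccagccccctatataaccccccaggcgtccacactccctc
MT2A: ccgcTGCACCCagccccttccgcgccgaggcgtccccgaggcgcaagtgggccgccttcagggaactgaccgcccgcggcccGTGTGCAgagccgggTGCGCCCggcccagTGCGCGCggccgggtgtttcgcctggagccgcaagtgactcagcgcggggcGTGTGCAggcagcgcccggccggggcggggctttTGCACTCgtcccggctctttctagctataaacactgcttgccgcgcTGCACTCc
MT1X: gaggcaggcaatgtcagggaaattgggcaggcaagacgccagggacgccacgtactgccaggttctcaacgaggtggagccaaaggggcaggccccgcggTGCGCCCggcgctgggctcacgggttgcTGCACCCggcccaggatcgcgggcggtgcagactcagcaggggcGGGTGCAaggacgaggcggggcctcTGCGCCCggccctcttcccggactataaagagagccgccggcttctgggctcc
The windows are chr15:74725529-74725778 on the minus strand for CYP1A1, chr19:55370464-55370713 on the minus strand for IL11, chr16:56608334-56608583 on the plus strand for MT2A and chr16:56682220-56682469 on the plus strand for MT1X. Gene spans in the text are from GENCODE 29, whose starts can differ: the MT2A window lies inside the MT2A span, the CYP1A1 and MT1X windows overlap theirs, and the IL11 window adjoins its own. GCGTG stands in CYP1A1 at -57 to -53 from the start, and 5 of the 7 promoters matched to the receptor's targets hold it, beside 44.4% of 11320 promoters of tested genes and 31.9% of all 27305. TGANTCA stands in IL11 at -96 to -90, and 0 of the 12 promoters matched to immediate early genes and 4.0% of promoters of tested genes hold it. TGCNCNC was found 7 times in MT2A and 4 times in MT1X, and 56.1% of promoters of tested genes hold it. A match is a description of letters, not of a bound site.

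All 16 immediate early genes rose, 14 of them at least 2-fold (median 2.09). EGR1, a zinc finger transcription factor, had 299, 327 and 292 CPM at 210 ug/mL, against 66.3, 63.7 and 64.5 CPM at 42 ug/mL (2.24). ATF3, a stress-induced transcription factor, had 83, 76.2 and 74.7 CPM at 210 ug/mL, against 12.5, 13.5 and 11.6 CPM at 42 ug/mL (2.64). The AP-1 subunit genes FOSL1 (2.02), JUNB (2.16) and JUN (1.77) rose with them, and MYC (0.43) and JUND (0.40) rose by less than 2-fold. Of 11 feedback genes of the kinase ERK, 8 rose and 1 fell (median 0.68). DUSP5, a phosphatase that acts on ERK, had 227, 210 and 205 CPM at 210 ug/mL, against 15.7, 16.3 and 13.4 CPM at 42 ug/mL (3.82), and SPRY4, an inhibitor of receptor signalling to ERK, rose by 0.96.

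Of 13 matrix proteases, plasminogen activators and their inhibitors, 8 passed the filter on low counts and were tested. Of these 8, 6 rose, each at least 2-fold, and 1 fell (median 2.22). A gene near 0 in other groups can pass that filter because it is high at 210 ug/mL, so these counts favour rises. MMP1, a tested member, had 28, 35 and 24 counts at 210 ug/mL, against 2, 5 and 2 at 42 ug/mL. PLAU, urokinase, had 29.2, 28.6 and 28.1 CPM at 210 ug/mL, against 6, 5.24 and 6.13 CPM at 42 ug/mL (2.31), and its receptor gene PLAUR rose by 2.49. Of 13 TGF beta and matrix genes, 8 rose and 3 fell (median 0.93). IGFBP1, a liver binding protein for insulin-like growth factors, had 4158, 3775 and 3862 CPM at 210 ug/mL, against 672, 638 and 666 CPM at 42 ug/mL (2.58), after 4.05 for 42 ug/mL against vehicle. Of 19 acute phase and NF-kappaB targets 12 were tested, of which 9 rose and 2 fell (median 1.01), with the same limit. CXCL2, a tested member, had 30, 27 and 18 counts at 210 ug/mL, against 1, 1 and 1 at 42 ug/mL. The chemokine gene CXCL8 had 12.8, 12.7 and 10.9 CPM at 210 ug/mL, against 2.27, 2.22 and 2.14 CPM at 42 ug/mL (2.46). CXCL8 and the inhibitor of apoptosis BIRC3 (1.90) were added at 210 ug/mL, whereas the acute phase gene HP was lower (-1.27).

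Of 22 NRF2 targets, 18 rose and 2 fell (median 0.48). TXNRD1, thioredoxin reductase, had 1308, 1221 and 1308 CPM at 210 ug/mL, against 493, 469 and 493 CPM at 42 ug/mL (1.40). The cystine transporter gene SLC7A11 (1.41) and the sulfiredoxin gene SRXN1 (1.11) rose, whereas the epoxide hydrolase gene EPHX1 (-0.21) fell. HMOX1, haem oxygenase (chromosome 22, 35380361 to 35394214), was the reversed member of the list and had 93.1, 99.5 and 93 CPM at 210 ug/mL, against 38.7, 37.2 and 41.3 CPM at 42 ug/mL (1.29, SE 0.0492, adjusted p = 7.87e-28). Its mean was 53.5 CPM in vehicle and 47.3 CPM at 8.4 ug/mL, so that of the 4 groups the mean was lowest at 42 ug/mL and highest at 210 ug/mL.

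Of 29 genes of the ATF4 amino acid response, 24 rose and 4 fell. The list's median was 0.40 at this step and 0.95 for 42 ug/mL against vehicle. ASNS, asparagine synthetase, had 260, 257 and 267 CPM at 210 ug/mL, against 190, 185 and 188 CPM at 42 ug/mL (0.48), beside 2.09 for 42 ug/mL against vehicle. The stress cytokine gene GDF15 (1.42), SESN2 (1.29), TRIB3 (0.70) and DDIT3 (0.76) rose, and those that fell were the serine synthesis genes PHGDH (-0.52), PSAT1 (-0.43) and PSPH (-0.33) and the mitochondrial PCK2 (-0.26). Of 20 endoplasmic reticulum chaperones and unfolded protein response genes 16 fell and 2 rose (median -0.30). HSPA5, the main chaperone of that compartment, had 725, 698 and 713 CPM at 210 ug/mL, against 1133, 1099 and 1098 CPM at 42 ug/mL (-0.64), whereas the stress sensor gene ERN1 rose by 1.06.

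Of 22 p53 targets 17 rose and 4 fell (median 0.47). CDKN1A, the cell cycle inhibitor p21, had 563, 559 and 521 CPM at 210 ug/mL, against 187, 176 and 170 CPM at 42 ug/mL (1.63). Of 16 apoptosis genes 13 rose and 1 fell (median 0.48), with promoters of cell death such as PMAIP1 (1.51) and BBC3 (1.22) and the survival gene MCL1 (1.05) among those that rose. All 22 mitotic genes (median -0.82) and all 24 DNA replication genes (median -0.88) fell. MKI67, the proliferation marker, averaged 80.4 CPM at 210 ug/mL and 187 CPM at 42 ug/mL (-1.22). GINS1 of the replicative helicase averaged 16 CPM at 210 ug/mL and 41.5 CPM at 42 ug/mL (-1.37). All 22 mitotic genes were also lower at 42 ug/mL than in vehicle.

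Of 25 genes of cholesterol synthesis and uptake 23 fell, 16 of them at least 2-fold, and 1 rose (median -1.13). ACAT2, a cytosolic acetyl-CoA acetyltransferase, had 39.4, 33.7 and 36.4 CPM at 210 ug/mL, against 118, 111 and 113 CPM at 42 ug/mL (-1.64), and its mean was 284 CPM in vehicle. The sterol carrier gene STARD4 (-1.43) and the isoprenoid isomerase gene IDI1 (-1.40) also fell. Of 18 genes of fatty acid and triglyceride synthesis 16 fell and 1 rose (median -0.69). The desaturase gene SCD (-1.29) and PNPLA3 (-2.05), a lipid droplet acylhydrolase gene, fell, while the acyltransferase gene AGPAT2 rose by 1.12 and had not been called at 42 ug/mL against vehicle (-0.08). PLIN2, which coats lipid droplets, averaged 628 CPM at 210 ug/mL and 194 CPM at 42 ug/mL (1.70).

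**Figure D2:**
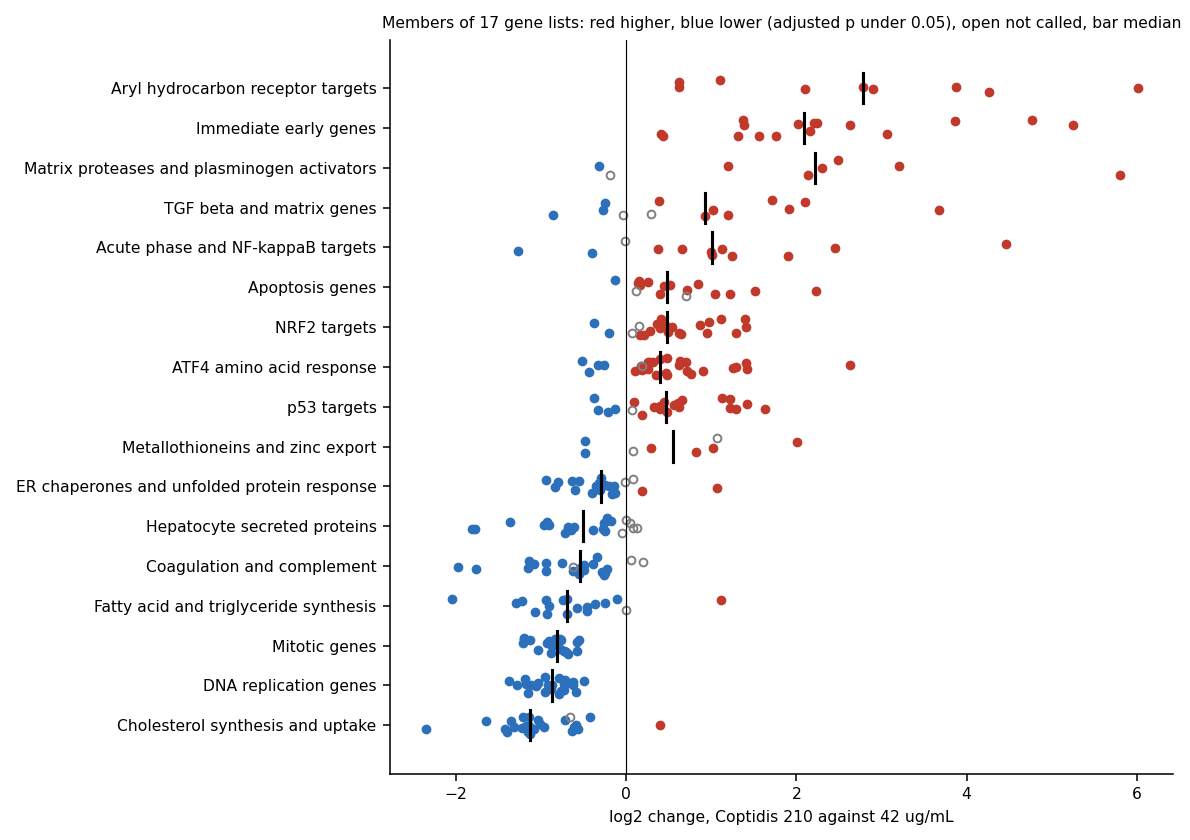
Each point is a gene of 1 of 17 lists, placed by its log2 change for Coptidis 210 against 42 ug/mL, red where called higher, blue where called lower and open where not called, with the list's median as a bar. The aryl hydrocarbon receptor targets and immediate early genes lie to the right of 0, and the mitotic and DNA replication genes to the left, as do the cholesterol genes that fell.

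Of 22 secreted liver proteins 17 fell and the others were not called (median -0.50), and of 23 coagulation and complement genes 20 fell and the others were not called (median -0.55), 11 of the changes added. FGA, a fibrinogen chain (chromosome 4, 154583126 to 154590766), had 105, 96.5 and 96 CPM at 210 ug/mL, against 353, 353 and 344 CPM at 42 ug/mL (-1.82, SE 0.0382, adjusted p = 2.09e-38), beside means of 995 CPM in vehicle and 663 CPM at 8.4 ug/mL. TTR, transthyretin, carries thyroid hormone and had 20.2, 22.6 and 22.7 CPM at 210 ug/mL, against 54, 59.4 and 54.9 CPM at 42 ug/mL (-1.36, SE 0.0740, adjusted p = 1.08e-21), while the mean was 53.9 CPM in vehicle and 54.8 CPM at 8.4 ug/mL. APOB, the structural protein of low density lipoprotein, had 8860, 9965 and 10343 CPM at 210 ug/mL, against 17707, 19557 and 18200 CPM at 42 ug/mL (-0.93) and was not called at 42 ug/mL against vehicle (-0.02). Of 16 apolipoprotein and lipoprotein assembly genes 10 fell and the others were not called (median -0.68). APOA1, of high density lipoprotein, was not called (0.00).

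Among 15 liver transcription factors 6 rose and 5 fell. CEBPA had 30.8, 28.6 and 34.5 CPM at 210 ug/mL, against 79.8, 80.9 and 84.7 CPM at 42 ug/mL (-1.39), and the bile acid receptor gene NR1H4 fell by 1.71, whereas CEBPB rose by 0.90 and HNF4A fell by 0.11. The summed HepG2 and hepatocyte markers, given above, moved with these groups, and their part in the falls was not tested. That sum includes genes described here as falling, such as APOB and TTR, so it is not a separate measure.

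Of the 802 reversed genes, 435 were not called at 210 ug/mL against vehicle (a comparison with 69.4% of all genes called), 137 were called and still on the side that 42 ug/mL had taken, and 230 were called on the other side of vehicle. In 33 genes both changes, 42 ug/mL against vehicle and 210 against 42 ug/mL, were at least 2-fold. Of these, 26 were higher at 210 than at 42 ug/mL and 7 were lower. Among the 26, only PEDS1-UBE2V1 and ENSG00000258377, both uncertain as described below, averaged at least 5 CPM at 210 ug/mL, at 42 ug/mL or in vehicle. The others lay below that level in each of these groups. The median size of a reversed change was 0.298 on the log2 scale, beside 0.42 for added and 0.494 for extended changes. The genes named next were ranked by the smaller of their 2 changes.

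DEPP1, a gene induced by FOXO factors (chromosome 10, 44970981 to 44978810), had 9, 10.1 and 9.91 CPM at 210 ug/mL, against 40.05, 38.6 and 39.1 CPM at 42 ug/mL (-2.02, SE 0.0795, adjusted p = 2.46e-27). Its mean was 13.8 CPM in vehicle and 22.1 CPM at 8.4 ug/mL, so that the 42 ug/mL libraries were highest and those at 210 ug/mL lay below vehicle. The homeobox gene MIXL1 (chromosome 1, 226223618 to 226227054) had the same order of those 3 groups, with 7.68, 9.15 and 10.2 CPM at 210 ug/mL, against 44.1, 41.5 and 46.6 CPM at 42 ug/mL, and 22.2 CPM in vehicle. TNFSF4, the ligand OX40L, had 2.15, 2.40 and 2.59 CPM at 210 ug/mL, against 7.19, 6.61 and 6.85 CPM at 42 ug/mL (-1.53). ANGPTL8, a liver regulator of lipoprotein lipase, had 7.76, 9.94 and 8.05 CPM at 210 ug/mL, against 19.3, 17.6 and 18.3 CPM at 42 ug/mL (-1.10), beside 9.85 CPM in vehicle. The lipocalin gene LCN15 fell by 0.93 and stayed above vehicle (1.51 for 210 ug/mL against vehicle).

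In the other direction, PFKFB4, which makes an activator of glycolysis, had 12.9, 12 and 12 CPM at 210 ug/mL, against 6.34, 7.14 and 6.25 CPM at 42 ug/mL (0.90), beside 11.4 CPM in vehicle. CITED2, a transcriptional co-regulator, had 18.5, 18.8 and 15.5 CPM at 210 ug/mL, against 10.3, 9.03 and 11.4 CPM at 42 ug/mL (0.78), beside 19.1 CPM in vehicle. BTG2, an antiproliferative gene, rose by 0.62 and was not called at 210 ug/mL against vehicle (-0.02, adjusted p = 0.835). The readthrough transcript PEDS1-UBE2V1 (1.21) and the antisense gene ENSG00000258377 (2.58) also met the rule. Both are uncertain, since their reads may belong to the genes they overlap, and the antisense gene had 3.73, 8.91 and 2.35 CPM at 210 ug/mL, against 1.58, 0 and 0.887 CPM at 42 ug/mL, with its call lost under DESeq2 (edgeR adjusted p = 0.0243).

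**Figure D3:**
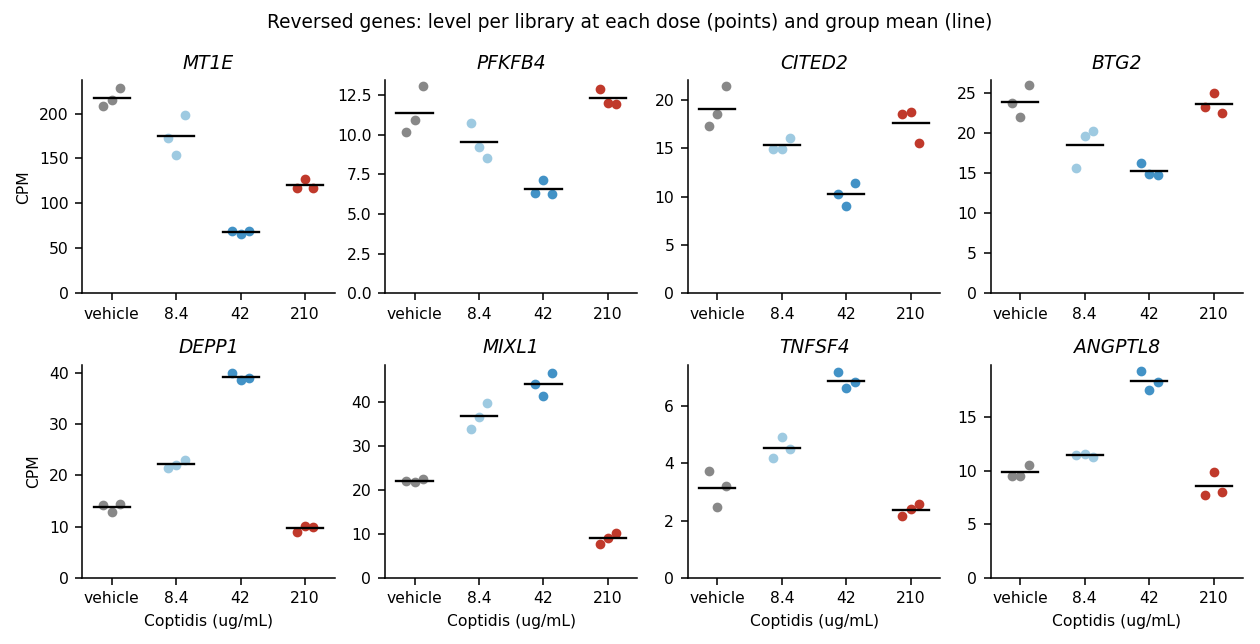
CPM on a linear axis from 0 for 8 reversed genes in each of 3 libraries (points) of vehicle and Coptidis at 8.4, 42 and 210 ug/mL, with group means as lines. MT1E, PFKFB4, CITED2 and BTG2 have their low point at 42 ug/mL, and DEPP1, MIXL1, TNFSF4 and ANGPTL8 their high point.

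Metallothioneins, small proteins that bind zinc and copper, differed from each other at the top dose. MT2A (chromosome 16, 56608199 to 56609497) had 1440, 1448 and 1397 CPM at 210 ug/mL, against 374, 353 and 336 CPM at 42 ug/mL (2.01, SE 0.129, adjusted p = 6.09e-19), while the mean was 386 CPM in vehicle and 384 CPM at 8.4 ug/mL. MT1E, on the same chromosome at 56625475 to 56627112, was reversed and had 117, 127 and 117 CPM at 210 ug/mL, against 69.8, 66.2 and 69.7 CPM at 42 ug/mL (0.82), beside 217 CPM in vehicle. MT1F, at 56657694 to 56660698, had 4.03, 3.75 and 3.88 CPM at 210 ug/mL, against 5.42, 6.13 and 4.84 CPM at 42 ug/mL (-0.49), beside 55.1 CPM in vehicle. MT1X, at 56682424 to 56684196, had 12, 11.4 and 11.8 CPM at 210 ug/mL, against 12, 10.1 and 11.3 CPM at 42 ug/mL and was not called (0.08, SE 0.162, adjusted p = 0.715), beside 56.2 CPM in vehicle. So MT2A and MT1E were higher at 210 than at 42 ug/mL, MT1F was lower and the MT1X libraries overlapped. The promoters of MT2A and MT1X printed above both hold the metal response element core. MT1A rose by 1.02 from a mean of 2.13 CPM at 42 ug/mL, and MT1G fell by 0.48, a call lost under 5 alternatives, among them library totals in place of TMM. Of the 8 tested genes of the list, with the zinc exporter gene SLC30A1 (0.30) included, 4 rose and 2 fell, and 6 had been lower at 42 ug/mL than in vehicle. Metallothionein genes are near-identical in sequence, so reads may be split between them and the size of each change is uncertain.

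Transcripts of the mitochondrial genome made up 12.4% ± 0.71 of counts at 210 ug/mL and 17.7% ± 0.45 at 42 ug/mL (SD, n = 3 each), beside 9.60% in vehicle. The difference was -5.25 percentage points (exact permutation test, two-sided, p = 0.1, the smallest p that 3 against 3 libraries can give). Most of it lay in the 2 ribosomal RNAs, which took 7.85%, 8.90% and 8.83% of counts at 210 ug/mL, against 13%, 13.5% and 13.5% at 42 ug/mL, and 2.46% on average in vehicle. MT-RNR1, the small ribosomal RNA (mitochondrial genome, 648 to 1601), was reversed, with -0.76 (SE 0.0953) at this step and 3.62 for 42 ug/mL against vehicle. MT-RNR2, the large one (1671 to 3229), had -0.65 at this step and 2.25 for 42 ug/mL against vehicle. The libraries were made from mRNA, and how far they capture these ribosomal RNAs in each group was not tested. The values are therefore of captured counts, and amounts in the cell were not measured.

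The 13 mitochondrial mRNAs together took 3.90% ± 0.27 of counts at 210 ug/mL and 4.34% ± 0.39 at 42 ug/mL (SD, n = 3 each; difference -0.446 points, exact permutation p = 0.2), beside 7.14% in vehicle. Of these, 6 fell and the others were not called. MT-CYB of complex III had 3626, 3879 and 3610 CPM at 210 ug/mL, against 6534, 7264 and 6056 CPM at 42 ug/mL (-0.84, SE 0.0884, adjusted p = 1.29e-11), and MT-ND5 of complex I had 2343, 2557 and 2413 CPM at 210 ug/mL, against 4422, 4876 and 4046 CPM at 42 ug/mL (-0.87, SE 0.118). MT-ND1 (-0.39), MT-ND4L (-0.38), MT-ND6 (-0.34) and MT-ND2 (-0.28) fell less, and the calls on MT-ND1, MT-ND2 and MT-ND6 were lost when single libraries were left out. The subunit genes of complex IV, MT-CO1 (-0.13), MT-CO2 (0.09) and MT-CO3 (0.14), and of the ATP synthase, MT-ATP6 (0.13) and MT-ATP8 (-0.04), were not called. Of 27 nuclear genes of the respiratory chain 13 fell and 1 rose (median -0.14), with UQCRC2 of complex III (-0.51) among those that fell. PPARGC1A, a coactivator of mitochondrial genes, was reversed and had 13.5, 16.5 and 16.8 CPM at 210 ug/mL, against 29.6, 30.3 and 30.4 CPM at 42 ug/mL (-0.95). The mitochondrial share enters every library total, and with these genes left out before scaling 9394 genes were called and 807 were reversed.

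**Figure D4:**
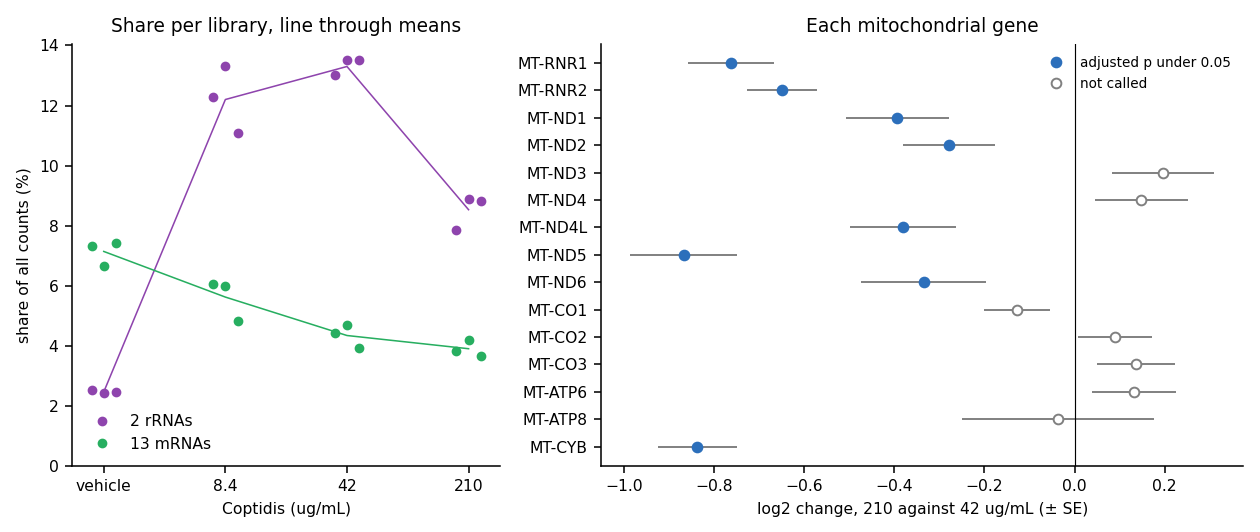
Left, percent of all counts from mitochondrial rRNAs and mRNAs per library (points) of vehicle and Coptidis at 8.4, 42 and 210 ug/mL, with lines through the means; right, log2 change with SE of each gene for 210 against 42 ug/mL, filled where called. The rRNA share was lower at 210 than at 42 ug/mL and above vehicle at every dose, and MT-CYB and MT-ND5 were the lowest of the mRNAs.

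The Coptidis step was compared with the same 5-fold step of Scutellariae Radix by an interaction term in the same model, in which the 2 steps share no library. The steps differed for 5343 genes (32.1% of those tested), and the Coptidis and fresh ginger steps differed for 5464 genes (32.8%). The 4 strongest rises and 3 strongest falls of the Coptidis step are set beside Scutellariae next, and since they were chosen for a large Coptidis step, their differences are a description. MMP3 changed by 5.80 with Coptidis and by 4.89 with Scutellariae, where it averaged 40.3 ± 3.39 CPM at 500 ug/mL and 1.36 ± 0.293 CPM at 100 ug/mL (SD, n = 3 each). ARC changed by 5.13 with Coptidis and by 4.45 with Scutellariae, a difference of 0.68 (SE 0.983) that did not pass the test (adjusted p = 0.651). C5AR2 (0.08) and TNFSF10 (0.03) were not called at the Scutellariae step, and SPTLC3 (-0.95) and SCN1A (-0.62) fell there.

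Over all genes tested the interaction was positive for 16.3% and negative for 15.8%. Against fresh ginger, in a comparison that shares the Coptidis libraries, it was positive for 15.9% and negative for 17.0%. Among the 9 aryl hydrocarbon receptor targets 8 were positive against Scutellariae and 6 against fresh ginger, and none was negative. The list's median was 2.79 at the Coptidis step, 0.14 at the Scutellariae step and 0.04 at the ginger step. These medians describe the step and not the level. CYP1A1 averaged 738 CPM at 100 ug/mL and 815 CPM at 500 ug/mL of Scutellariae, beside 12.3 CPM in vehicle. AHRR averaged 4.09 and 4.77 CPM at those Scutellariae doses, beside 0.597 CPM in vehicle. With fresh ginger CYP1A1 averaged 18.4 CPM at 100 ug/mL and 71.3 CPM at 500 ug/mL (log2 change 1.96). Of the 25 cholesterol genes 23 were negative against each extract, with medians of -1.13 for Coptidis, -0.35 for Scutellariae and -0.37 for ginger.

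All 8 metallothionein and zinc genes were positive against Scutellariae, where their median was -1.34, and 2 were positive and none negative against ginger, where it was 0.26, beside 0.56 for Coptidis. Of the 29 ATF4 response genes 2 were positive and 22 negative against Scutellariae, but 9 were positive and 6 negative against ginger. Their medians were 0.40 for Coptidis, 0.77 for Scutellariae and 0.25 for ginger. The 16 immediate early genes were divided against Scutellariae, with 7 positive and 5 negative, whereas 15 were positive and none negative against ginger. Their medians were 2.09 for Coptidis, 2.13 for Scutellariae and 0.88 for ginger. Over all genes the median step was -0.0063 for Coptidis, 0.0102 for Scutellariae and 0.0028 for ginger. The doses in ug/mL differ between the extracts.

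**Figure D5:**
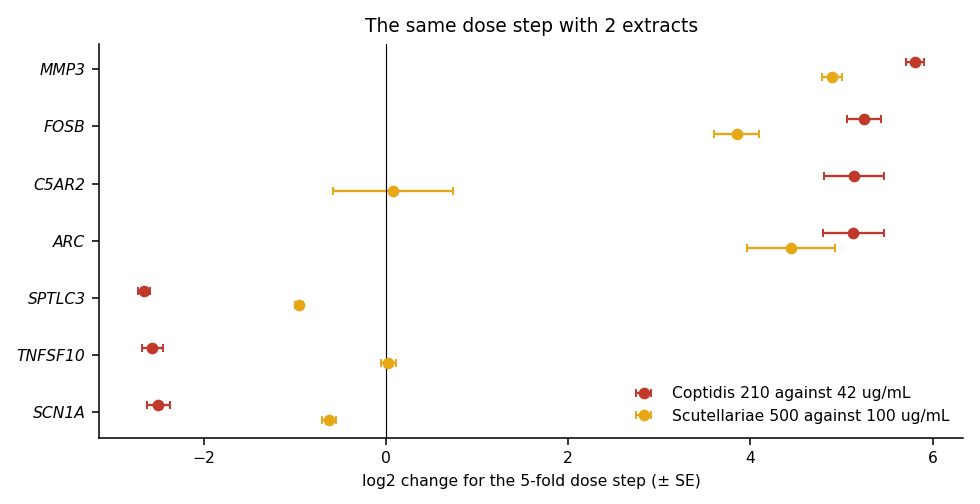
log2 change (± SE) of 7 genes for the 5-fold step of Coptidis (210 against 42 ug/mL) and of Scutellariae (500 against 100 ug/mL). MMP3, FOSB and ARC lie to the right of 0 for both extracts, whereas C5AR2 and TNFSF10 lie near 0 for Scutellariae.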

How the data were processed

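Gene levels were taken from expected counts that the authors deposited, made with RSEM 1.3.3 after Trim Galore 0.6.5 and STAR 2.7.3a on GRCh38, per the submitters' processing notes; which annotation and strand setting the counting used is not given in the sources used here. Values were rounded to whole numbers, since 24.4% of those above 0 were fractional. The table had 267 columns, of which 59 matched samples and 208 were not used. Libraries held 21582603 to 31392069 counts.

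All 59 libraries in 20 groups entered 1 edgeR 4.0.16 quasi-likelihood fit (R 4.3.3) with TMM scaling and filterByExpr, which kept 16641 genes. This filter on low counts can keep a gene for the groups where it is high, which favours rises among tested members of a list. Counts and medians of a list are over its tested members. The biological coefficient of variation was 4.4%. P-values were adjusted by Benjamini-Hochberg over all genes tested and called below 0.05. The SE of a log2 change is the value implied by the quasi-likelihood F statistic. It is the absolute log2 change divided by the square root of F, and was not estimated separately. CPM used TMM-scaled library sizes. Symbols came from a separate list of gene names for 56558 of 60675 genes, and otherwise from GENCODE 29 where it named the gene. Coordinates came from GENCODE 29 for 57055 genes.

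The members and gene lists were chosen with earlier results of these data known. Named genes were, per list, up to 4 called members with the largest change and members that describe the pathway; the 12 highest and 12 lowest changes among called genes with at least 5 CPM in the higher group and groups that do not overlap; and the 6 reversed genes in each direction with the largest smaller change and at least 5 CPM in a group. Some genes that met these rules are not reported here, and some further list members are named for contrast, after their values were seen. For a gene with several RefSeq promoters the first listed was used. Alternatives were DESeq2 1.42.0, other scalings, no filter, fits of fewer groups, a replicate block, leaving out 3 libraries of other extracts that stood apart in earlier results, mitochondrial genes left out (chosen after seeing the data) and leaving out single libraries.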

Additional observations from a re-analysis of the deposited data

Results flagged for a closer look

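Of the 7 genes set beside the Scutellariae step, 6 are given here because the difference between the steps passed the test (edgeR's quasi-likelihood interaction, Benjamini-Hochberg adjusted over all genes tested). All 7 were chosen for a large Coptidis step, which is part of the difference tested. A difference in the Coptidis direction was thus favoured by the choice, and the values and p-values below are a description. Coptidis minus Scutellariae was positive on the log2 scale for MMP3 at 0.91 (SE 0.194, adjusted p = 0.000203), for FOSB at 1.40 (SE 0.407, adjusted p = 0.00607) and for C5AR2 at 5.06 (SE 0.854, adjusted p = 5.59e-06). With Scutellariae FOSB averaged 5.99 ± 0.914 CPM at 500 ug/mL and 0.418 ± 0.207 CPM at 100 ug/mL, and C5AR2 averaged 0.136 ± 0.0228 CPM at 500 ug/mL and 0.129 ± 0.0829 CPM at 100 ug/mL (SD, n = 3 each), levels of C5AR2 that rest on few counts.

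It was negative for SPTLC3 at -1.70 (SE 0.0834, adjusted p = 4.64e-22), TNFSF10 at -2.59 (SE 0.145, adjusted p = 6.88e-20) and SCN1A at -1.88 (SE 0.155, adjusted p = 4.47e-14). With Scutellariae TNFSF10 averaged 7.38 ± 0.264 CPM at 500 ug/mL and 7.25 ± 0.681 CPM at 100 ug/mL (SD, n = 3 each). The doses of the 2 extracts differ, and their part in these differences was not tested.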

How the results depend on the processing

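Between 210 and 42 ug/mL, 8989 genes were called with DESeq2, 9380 with library totals and 9428 with the replicate number as a block, beside 9390. Library totals in place of TMM moved the median log2 change of all genes to -0.1655 at 42 ug/mL, -0.1218 at 210 ug/mL and -0.1512 at 8.4 ug/mL against vehicle, and to 0.0363 for 210 against 42 ug/mL. Under it 6358 genes were called at 8.4 ug/mL against vehicle (7.36% of them higher, beside 53.7% of 2656), and 1389 were reversed, beside 802. Leaving out 1 library gave 8694 to 8848 genes for 210 against 42 ug/mL, 3287 to 4153 added, 4337 to 4692 extended and 632 to 763 reversed. A fit of the groups compared alone gave 9480 genes for this step, 3039 added and 951 reversed, and one of vehicle and Coptidis gave 9627, 3572 added and 899 reversed. Without 3 libraries of other extracts that stood apart in earlier results, which enter only through estimates shared by all libraries, 9840 were called, 3707 added and 936 reversed, and 3346 were called at 8.4 ug/mL against vehicle, beside 2656. Replicate numbers did not pair the libraries (same-number correlations of 0.004, 0.042 and 0.051), and under the block 816 genes were reversed.

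Of 272 named genes 21 changed their call under some alternative, and none changed direction. Among them were CCND1, CDH5, COL1A1, ENSG00000258377, H4C3, HSPB8, MT1G, NDUFA2, RPL10, RPL11, RPS6, TXNIP and the mitochondrial MT-ATP6, MT-CO1, MT-CO3, MT-ND1, MT-ND2, MT-ND3, MT-ND4 and MT-ND6. For MT-ND1 the call was lost without 42 ug/mL replicate 2, for MT-ND2 without 210 ug/mL replicate 3 or 42 ug/mL replicate 1 or 2, for MT-ND6 without 210 ug/mL replicate 1 or 3 or 42 ug/mL replicate 1 or 2, for MT1G without 210 ug/mL replicate 2 or 3 or 42 ug/mL replicate 1, and for ENSG00000258377 without 210 ug/mL replicate 2 or 42 ug/mL replicate 2 or 3. Their log2 changes with 1 library left out were -0.51 to -0.28 for MT-ND1, -0.34 to -0.22 for MT-ND2, -0.40 to -0.29 for MT-ND6, -0.59 to -0.32 for MT1G and 1.87 to 3.48 for ENSG00000258377.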

Other observations

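Of 21 autophagy and lysosome genes 12 rose and 4 fell at 210 against 42 ug/mL (median log2 change 0.19). The lysosomal protease gene CTSL (1.44) and GABARAPL1 (1.15) and MAP1LC3B (1.05), whose products decorate autophagosomes, were among those that rose. Of 10 YAP and TEAD targets 8 rose and 1 fell (median 0.47), and the matricellular genes CCN1 (1.80) and CCN2 (-0.86) moved in opposite directions. Of 14 cytoskeletal genes 9 rose and 4 fell, with actin ACTG1 (0.77) and the tubulin gene TUBB6 (0.88) higher and TUBA1B (-0.62) lower. Of 11 histone genes of the replication clusters 7 rose and 1 fell, while the DNA replication genes fell. H2AC6 had 32.8, 28.2 and 32.3 CPM at 210 ug/mL, against 11.2, 10.6 and 11.7 CPM at 42 ug/mL. How far mRNA libraries capture the transcripts of these histone genes was not tested.

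The glycolysis and hypoxia list was divided, with 10 of 27 higher and 10 lower. NDRG1, a stress-responsive gene, had 218, 225 and 217 CPM at 210 ug/mL, against 42.8, 43.6 and 45.9 CPM at 42 ug/mL (2.32), PFKFB3 (1.62) and PFKP (1.54) rose, and the glucose transporter gene SLC2A1 (-0.19) fell. Of 12 clock genes 6 rose and 3 fell, with the repressor genes BHLHE40 (1.46) and NR1D1 (1.34) higher and DBP (-0.65) lower. Of 14 splicing factors 7 fell and 2 rose, the risen ones being the kinase genes CLK1 (0.76) and CLK4 (0.71). Of 21 cytosolic ribosomal protein genes 3 rose and the others were not called (median 0.07). HAMP, hepcidin, the hormone that limits iron uptake, was reversed and had 64.4, 60.4 and 64.8 CPM at 210 ug/mL, against 51.9, 49.4 and 52.8 CPM at 42 ug/mL, beside 66 CPM in vehicle.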
